A study of Mus musculus with 64 samples.

Results

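Of the 64 single cells in the series, 62 fell into one of 2 classes, and the expression of all genes was compared between them. The macrophage-marker class held 47 cells (22 from molars and 25 from incisors), each with at least 1 read of Csf1r, which encodes the receptor of colony-stimulating factor 1, at least 1 read of C1qa, a chain of complement component C1q, and under 500 CPM of Rgs5, a pericyte marker that dampens signals of G proteins. The mural-like class held 15 cells (9 from molars and 6 from incisors), each with at least 500 CPM of Rgs5 and 0 reads of Csf1r and C1qa. The other 2 cells met neither definition and were left out. CPM is a gene's count scaled to a total of 1000000 counts in its cell, or in all cells of a class where counts were summed.

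The cells came from teeth of XLacZ4 mice, a line carrying a lacZ reporter. They were stained with FDG, a substrate that fluoresces once beta-galactosidase has cut it, and the positive cells were collected one by one in a fluorescence-activated sorter and sequenced with Smart-Seq2. Both classes share this reporter, stain and sort, and the labels call every cell a pericyte and name no treatment, age or animal. Each tissue therefore counts as 1 sample, the cells are not replicates, and no test was made and no p-value is given.

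Mural cells, which are pericytes and vascular smooth muscle cells, sit on the outside of small vessels, where they hold the endothelium, contract and lay down basement membrane. Resident macrophages live in the same connective tissue and in the dental pulp, where they take up debris and microbes, make complement and release chemokines. In the pulp both lie close to the vessels.

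The classes were chosen from these counts, so differences between them are given as descriptions. Rgs5 ran from 570.4 to 49583 CPM in the mural-like cells, with a median of 30147. The cell just inside the limit, incisor cell 2 at 570.4 CPM, stood far below the next, incisor cell 10 at 14729 CPM. In the macrophage-marker cells Rgs5 had a median of 0 CPM, and incisor cell 25 came nearest to the limit with 167.1 CPM. Csf1r had 44 to 12231 reads in these cells (median 1837) and C1qa 1 to 10995 (median 1120). Pdgfrb, the receptor for platelet-derived growth factor B on pericytes, is also left out of the findings as a marker of the classes.

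Markers that the definition did not use were read next, 12 of macrophages and 12 of mural cells. After every cell was thinned to 500000 reads, the macrophage-marker cells had reads of 6 to 12 of the macrophage markers (median 12) and of 0 to 2 of the mural markers. The mural-like cells had reads of 2 to 11 of the mural markers (median 7) and of 0 to 1 of the macrophage markers. Summed per cell, the macrophage markers came to 4280 to 32033 CPM in the macrophage-marker cells and to 0 to 33.3 CPM in the mural-like cells. The mural markers came to 1169 to 26024 CPM in the mural-like cells and to 0 to 125 CPM in the macrophage-marker cells. Neither sum overlapped between the classes. The label of pericyte thus went against the markers in the 47 macrophage-marker cells. The marker counts of the 15 mural-like cells went with it, but with only 2 mural markers read in incisor cell 2 and 3 in molar cell 23. These markers come from the same cells as the definition and are no separate evidence for it.

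**Figure D1:**
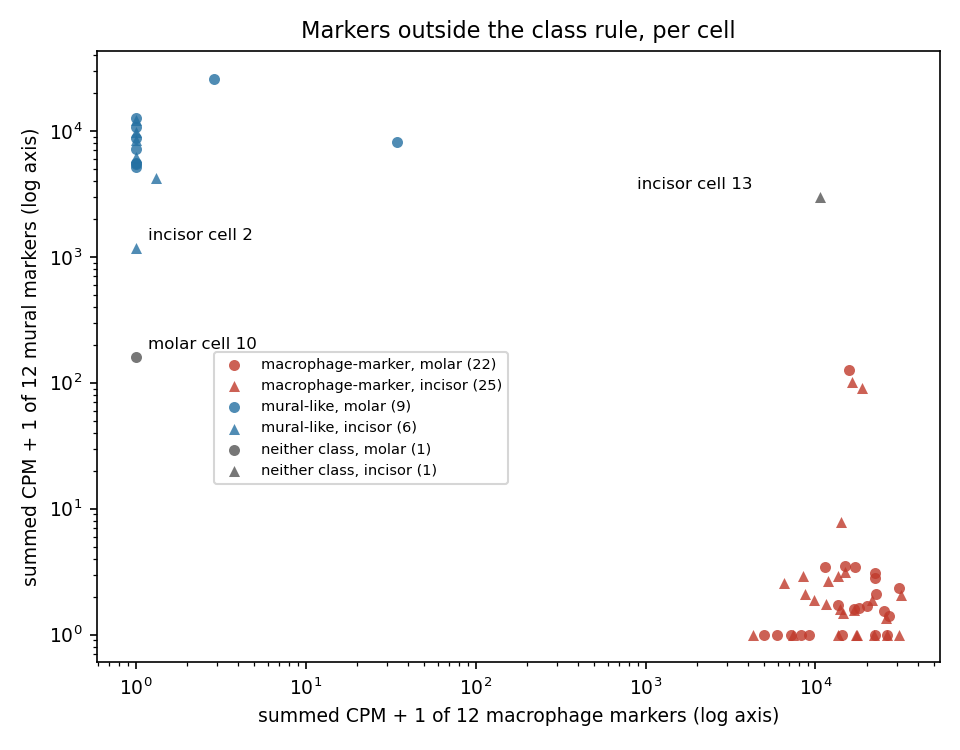
Each point is 1 cell, placed by the summed CPM + 1 of 12 macrophage markers (horizontal, log axis) and of 12 mural markers (vertical, log axis). The 47 macrophage-marker cells lie at 4280 CPM or more of macrophage markers, the 15 mural-like cells at 1169 CPM or more of mural markers, and incisor cell 13, in neither class, is high in both.

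Depth and RNA measures differed between the classes. Total counts ran from 514492 to 2933124 in the macrophage-marker cells (median 1428705) and from 1230795 to 3171734 in the mural-like cells (median 2767909). Genes with a read were alike in number with both tissues together, with medians of 2587 and 2529, or 2370 and 2308 after thinning. Within each tissue they were not. The thinned medians of the macrophage-marker and mural-like cells were 2327.5 and 2145 in molars, and 2378 and 3315.5 in incisors. The nuclear RNA Malat1 took a median of 3.52% of the counts in the macrophage-marker cells and 1.27% in the mural-like cells, and the ribosomal RNA gene Rn45s 1.89% and 0.548%. The part of these measures in the differences below was not tested. Correlations between pairs of cells reached 0.528 at most, and no columns were near copies of each other.

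The 2 classes differed over a large share of the transcriptome. A gene counted as measured with at least 20 CPM in the summed counts of 1 class, and 8362 genes were. A measured gene was called past the fold when the absolute log2 ratio of its summed CPM, each raised by a pseudocount of 1 CPM, was at least 1, and the share of thinned cells with a read also differed in that direction by 20 percentage points or more. By this rule, with the marker genes of the classes counted in, 1231 genes (14.7%) were higher in the macrophage-marker cells and 1162 (13.9%) in the mural-like cells, together 28.6%. Of the first, 437 had 0 counts in all mural-like cells, and of the second, 230 had 0 counts in all macrophage-marker cells. These numbers cannot be compared, since 15 mural-like cells with 38713793 counts reach 0 more easily than 47 macrophage-marker cells with 74808887. In both tissues taken alone the ratio also passed 1 the same way for 1028 (12.3%) and 923 genes (11%). The median log2 ratio (macrophage-marker over mural-like) of the measured genes was -0.19, with quartiles of -1.97 and 1.83. It was 0.04 in molar cells alone and 0.03 in incisor cells alone.

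**Figure D2:**
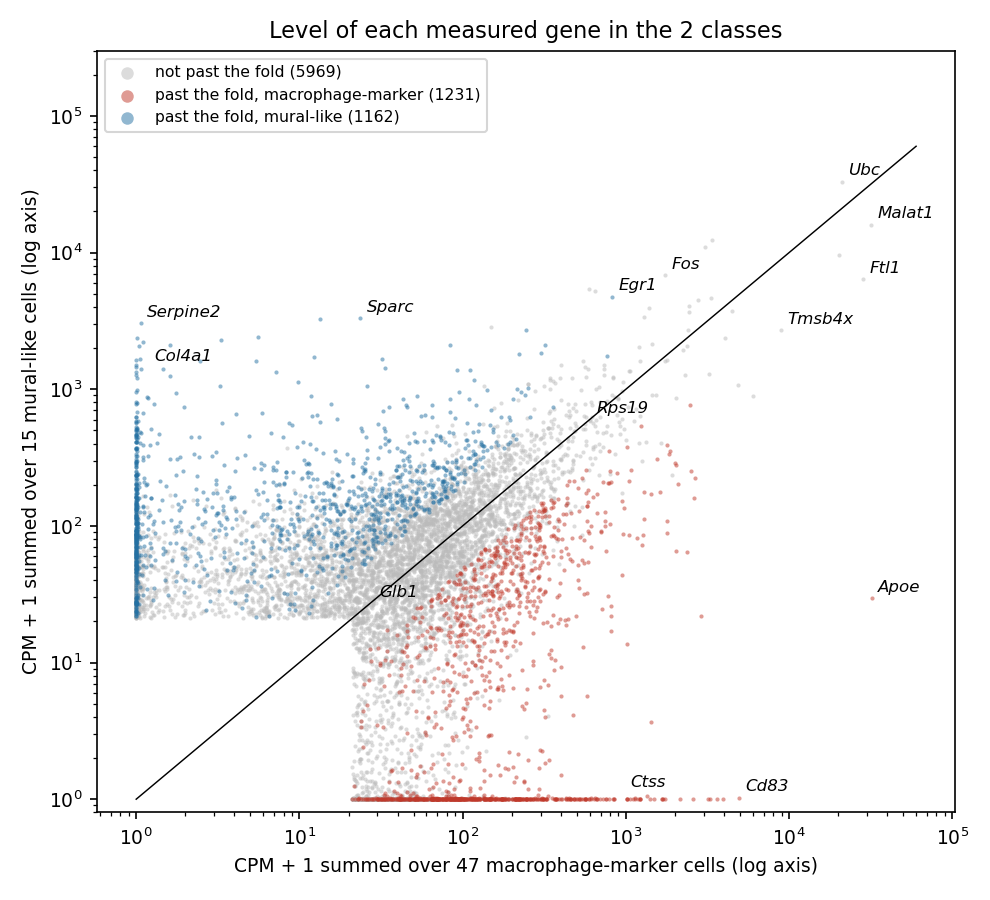
Each point is a measured gene, placed by its summed CPM + 1 in the macrophage-marker cells (horizontal) and in the mural-like cells (vertical), both log axes, without the 4 marker genes of the classes. Red and blue mark the genes past the fold, many of them along the axes with 0 counts in the other class, and the line marks equal levels. The counts of 1231 and 1162 in the key include marker genes that are not drawn.

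Counted with the marker genes of the classes, the genes past the fold higher in the macrophage-marker cells made up 35.7% of their counts. Those higher in the mural-like cells, Rgs5 included at a median of 30147 CPM, made up 31.7% of theirs. Few of the genes past the fold separated the classes cell by cell. In 5 genes (0.0598%) every macrophage-marker cell lay above every mural-like cell: Ctss, Fyb and Sirpa besides Csf1r and C1qa of the definition. In 3 genes (0.0359%) every mural-like cell lay above every macrophage-marker cell: Col4a1 and Maged2 besides Rgs5. A read in at least 80% of the thinned cells of its class was found for 177 genes higher in the macrophage-marker cells and 116 higher in the mural-like cells.

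Ctss encodes cathepsin S, a lysosomal protease that cuts the invariant chain of MHC class II (chromosome 3, 95526786 to 95556403, plus strand, GRCm38). It had 82.3 to 8593 CPM in the macrophage-marker cells (median 1147) and 0 reads in the 15 mural-like cells. A count of 0 cells in 15 leaves room for a share of 20% at 95% confidence, for counting error only and as if the cells were independent, which the labels do not show. Its summed level of 2141 CPM was at least 27632-fold higher, taking 3 counts as the floor for a class with 0 counts. Sirpa, an inhibitory receptor that binds CD47 (chromosome 2, 129592835 to 129632228, plus strand), had 3.89 to 3373 CPM (median 603) against 0 in the mural-like cells, at least 13595-fold higher in sum. Fyb, an adaptor protein of leukocyte signalling (chromosome 15, 6522853 to 6663313, plus strand), had 5.26 to 7563 CPM (median 548) against 0. No cell of one class reached the range of the other in these 3 genes.

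The remaining genes with the largest differences in share were read in 45 or 46 of the 47 macrophage-marker cells and in 0 of the 15 mural-like cells after thinning. They were Cd83, an activation antigen of antigen-presenting cells, the complement chains C1qb and C1qc, the signalling adaptors Tyrobp and Fcer1g, the leukocyte proteins Plek and Laptm5, the fractalkine receptor Cx3cr1 and the membrane protein Ms4a7. C1qb ran from 0 to 8031 CPM in the macrophage-marker cells with a median of 2531. C1qc had a median of 2471 CPM, and the unthinned counts gave it a read in 46 cells instead of 45. C1qb and C1qc (chromosome 4, 136880129 to 136886187 and 136889804 to 136893065, both minus strand) are neighbours of C1qa, which the definition used. Cd83 had a single read in the mural-like cells, in molar cell 15, and a median of 3214 CPM in the macrophage-marker cells. Cx3cr1 leaned most on one cell: molar cell 30 held 37.1% of its counts, and its log2 ratio of 9.22 became 8.60 without that cell.

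By summed level, Apoe, Cd83, Cd14 and Lyz2 led the genes higher in the macrophage-marker cells. Apoe, the lipid carrier apolipoprotein E (chromosome 7, 19696109 to 19699188, minus strand), had 0.487 to 195993 CPM in these cells with a median of 18705. The mural-like cells had a median of 0 and a highest value of 357 CPM, in incisor cell 32, which held 99.9% of their counts. The classes overlapped in Apoe only at the low end. Its log2 ratio was 10.08 with all cells and 14.93 without incisor cell 32. Cd14, the coreceptor for bacterial lipopolysaccharide, was read in 43 of 47 cells with a median of 1271 CPM and had 0 reads in the mural-like cells. Lyz2, lysozyme, was read in 39 thinned cells (40 unthinned), and molar cell 8 alone held 43.3% of its counts, so that its log2 ratio of 11.82 became 11.06 without that cell. Reads of Lyz2 can be shared with its near-identical neighbour Lyz1.

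Stretches near the Ctss and C1qc start sites are shown because both hold the core of the site of PU.1, a transcription factor of myeloid cells. The C1qc stretch ends at position -128, before its start site. The match is GAGGAAGT, here on the opposite strand and so read as its reverse complement, and capitals mark it. The stretches are on the strand of the gene, 5′ to 3′, from RefSeq on GRCm38.p6: Ctss at chr3:95526724-95526805 (plus strand, match from position -2 relative to the start site) and C1qc at chr4:136893042-136893164 (minus strand, match from position -195).
Ctss: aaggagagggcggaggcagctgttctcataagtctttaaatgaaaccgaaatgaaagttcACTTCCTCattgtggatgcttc
C1qc: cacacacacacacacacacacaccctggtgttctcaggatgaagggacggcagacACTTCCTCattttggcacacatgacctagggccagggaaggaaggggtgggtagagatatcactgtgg
The motif was searched on both strands of windows of 300 bases, from 250 before to 50 after each start. It was in 3.11% of 32544 windows, and in 2 of the 9 genes named above by share that had a window. Among measured genes with a window it was in 6.52% of 966 genes higher in the macrophage-marker cells, 2.56% of 860 higher in the mural-like cells and 3.80% of all 6500. A match is a string of letters and no measured binding. Spi1, which encodes PU.1, was read in 44 of 47 macrophage-marker cells with a median of 474 CPM and in 0 mural-like cells.

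Gene lists were then read by role, each by its members past the fold and its median log2 ratio, beside the median of -0.19 over all measured genes. Of all measured genes 14.7% were past the fold in the macrophage-marker cells and 13.9% in the mural-like cells. A list near these shares is not set apart by its counts. Of 306 genes past the fold among the lists and the named genes, 36 lost the call when 1 cell was left out. The ratio of 155 moved by more than 1.5 times when 1 cell was left out, and the direction changed in 0. Among 22 genes of leukocyte identity and signalling, 20 were past the fold in the macrophage-marker cells and 0 in the mural-like cells, with a median of 7.82. Ptprc, the pan-leukocyte antigen CD45, was read in 43 of 47 macrophage-marker cells (median 212 CPM) and once in 1 mural-like cell. The actin-bundling protein gene Lcp1 was read in 43 cells and 0 mural-like cells. The other members, Cd52 and Arhgdib, were not past the fold: Arhgdib had 327 and 339 CPM.

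Receptors for antibody, debris and lipid showed the same split. Of 12 Fc and related immune receptors, 11 were past the fold in the macrophage-marker cells (median 7.21), and the 12 had 0.155 CPM or less each in the mural-like cells. The calls of Pirb and Siglec1, read in 10 thinned cells each, were lost without any one of 10 cells. Lilrb4a, an inhibitory receptor, had the highest median per cell among them (1309 CPM, 39 of 47 cells), with reads that could be shared with its paralogue. Fcgr3, the low-affinity receptor for immunoglobulin G, was read in 38 cells with a median of 126 CPM. Of 15 scavenger and residence receptors measured, 12 were past the fold (median 7.99). The mannose receptor Mrc1 was read in 44 cells (median 1168 CPM), Stab1 in 41 (median 632 CPM) and the macrophage antigen Adgre1, F4/80, in 43 thinned and 44 unthinned cells (median 450 CPM). Lyve1, a hyaluronan receptor of perivascular macrophages, was read in 20 cells and Timd4, a receptor for phosphatidylserine, in 11. The log2 ratio of Timd4, 6.52, became 5.75 without molar cell 3. The receptor tyrosine kinase Axl had 426 CPM in the macrophage-marker cells and 643 CPM in the mural-like cells and was not past the fold.

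Complement genes lay in both classes. Of 15 measured, 6 were past the fold in the macrophage-marker cells and 3 in the mural-like cells (median 6.05). Besides C1qb and C1qc, the receptors C5ar1 (1135 against 0.0258 CPM) and C3ar1 (514 against 0 CPM) and properdin, Cfp (661 against 0 CPM), were higher in the macrophage-marker cells. Serping1, the inhibitor of the C1 proteases (chromosome 2, 84765387 to 84775444, minus strand), went the other way. It had 0 reads in all 47 macrophage-marker cells, was read in 10 of the 15 mural-like cells (median 265 CPM), and was at least 14034-fold higher there in sum. The proteases of the same complex, C1ra and C1s1, were also past the fold in the mural-like cells, each in 5 or 6 thinned cells, and both calls were lost when single mural-like cells were left out. The chains of C1q were thus counted in one class, and its proteases and their inhibitor mainly in the other.

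Antigen presentation differed by pathway. Cd86, a costimulatory ligand, was read in 42 of 47 macrophage-marker cells (median 747 CPM), while the class II invariant chain Cd74 was read in 19 and the class II chains themselves hardly at all: H2-Aa had 0 reads in both classes and H2-Ab1 4.25 CPM from 2 cells. Of 7 class II pathway genes measured, 4 were past the fold (median 5.88). Of 14 class I genes, 5 were past the fold and 9 were not (median 1.04). The class I heavy chain H2-D1 had 2035 and 279 CPM and H2-K1 946 and 174 CPM, H2-K1 without passing the fold because both classes had reads in most cells. Reads can be shared among the H2 heavy chains. B2m, their light chain, had 1875 and 352 CPM, a call that was lost without molar cell 15, incisor cell 2 or incisor cell 28 of the mural-like class.

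Secreted signals varied widely among the macrophage-marker cells. Of 15 chemokines measured, 11 were past the fold in the macrophage-marker cells (median 7.04). Pf4, platelet factor 4, was read in 42 cells with a median of 1300 CPM, Cxcl16 in 44 with a median of 701 CPM and Cxcl2, which attracts neutrophils, in 40 with a median of 2328 CPM. Cxcl2 also had 430 CPM in mural-like molar cell 4, and its log2 ratio of 7.04 became 11.50 without that cell. Ccl7, which attracts monocytes, was read in only 25 thinned cells, with a median of 30.8 and a highest value of 17986 CPM. Its levels thus spread over nearly the whole range among cells of one class. Ccl2 had 2377 and 63.8 CPM, and its log2 ratio of 5.20 became 7.31 without mural-like molar cell 17. Cxcl1 was read in 32 of 47 and 11 of 15 cells (1326 and 413 CPM) and was not past the fold. Reads of Ccl2, Ccl7 and Ccl12 could be shared among these paralogues.

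Of 14 cytokine genes of the interleukin-1 and tumour necrosis factor families and their receptors, 7 were past the fold in the macrophage-marker cells and 3 in the mural-like cells (median 6.21). Tnf was read in 29 cells with a median of 123 CPM, Il1b in 26 and Il1a in 24, each with 0 reads in the mural-like cells. Il1rn, the antagonist of the interleukin-1 receptor, was read in 13. Il6 was read in 4 mural-like cells and in 0 macrophage-marker cells (141 against 0 CPM), and its log2 ratio of -7.15 became -4.68 without molar cell 1. The receptor chains Il1r1 and Il1rap were each read in 4 mural-like cells, and each call was lost when any of those cells was left out. Of 16 Toll-like receptor and NF-kappaB genes, 13 were past the fold in the macrophage-marker cells (median 4.87). Tlr2 was read in 40 cells (median 328 CPM) and 0 mural-like cells, while Nfkbia, the inhibitor of NF-kappaB, had 2379 and 2056 CPM and was not past the fold.

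Lysosomal enzymes were mostly read in both classes. Of 25, 16 were past the fold in the macrophage-marker cells and 9 were not (median 2.45). Cathepsin B, Ctsb, had 483 to 27221 CPM in the macrophage-marker cells and 0 to 2241 CPM in the mural-like cells, with medians of 3905 and 678. Legumain, Lgmn, was read in 47 of 47 and 7 of 15 cells (2660 and 222 CPM). Ctsh was the member with 0 reads in the mural-like cells (38 of 47 macrophage-marker cells). Glb1, the lysosomal beta-galactosidase of the mouse, had 27.1 CPM in the macrophage-marker cells (7 thinned and 9 unthinned cells, at most 605 CPM) and 26.1 CPM in the mural-like cells, all of it in incisor cell 22. Its log2 ratio of 0.05 became -0.68 without macrophage-marker incisor cell 25 and 4.81 without mural-like incisor cell 22, so the classes could not be ordered by it. Glb1 protein and the reporter were not measured.

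Among 16 transcription factor genes of macrophages, 10 were past the fold in the macrophage-marker cells (median 3.59). Besides Spi1, Maf was read in 43 of 47 and 5 of 15 cells (202 and 12.2 CPM), and Irf8 and Ikzf1 were read in 23 and 22 macrophage-marker cells. The log2 ratios of Maf and Irf8, 3.95 and 3.83, became 5.17 without mural-like molar cell 17 and 7.05 without mural-like incisor cell 24. Cebpb had 3252 and 1296 CPM and was not past the fold. Of 15 genes of lipid and iron handling, 8 were past the fold in the macrophage-marker cells and 2 in the mural-like cells (median 3.05). The iron transporter Slc40a1, ferroportin, was read in 33 cells (median 61.1 CPM) and had 1 read in the mural-like cells, and its log2 ratio of 9.30 became 8.58 without incisor cell 25. The ferritin chains Ftl1 and Fth1 were read in every cell of both classes and could not pass the share rule. Ftl1 had 28469 and 6408 CPM and Fth1 4885 and 1067 CPM, log2 ratios of 2.15 and 2.19, and both have processed copies that can share reads.

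**Figure D3:**
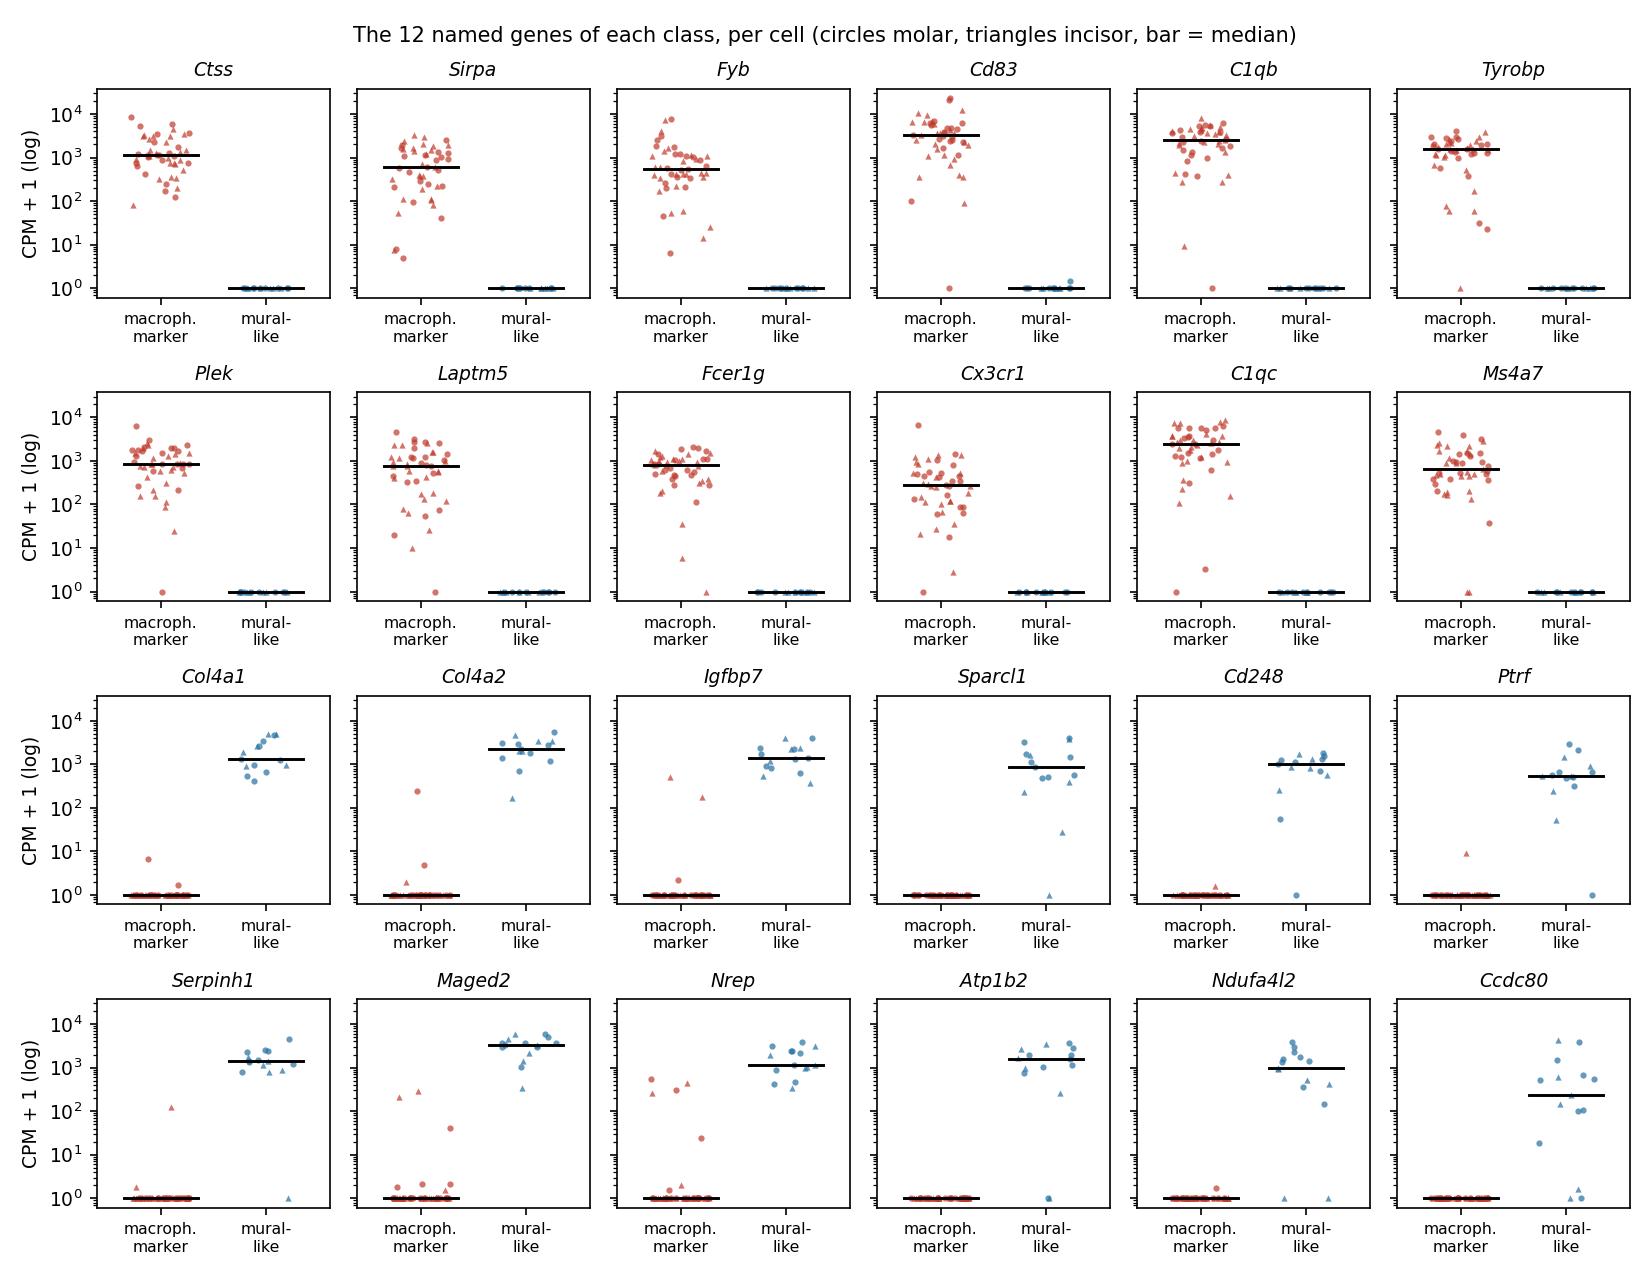
Each panel gives 1 gene's CPM + 1 (vertical, log axis) in the 47 macrophage-marker and 15 mural-like cells, with the median as a bar. The first 12 genes sit at or near 0 CPM in every mural-like cell, and the last 12 at a median of 0 in the macrophage-marker cells, with single cells above it for Col4a2, Igfbp7, Serpinh1, Maged2 and Nrep.

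Among genes higher in the mural-like cells, Col4a1 and Col4a2 were among those with the largest differences in share. Col4a1 and Col4a2 encode the chains of type IV collagen, the network of basement membranes, and lie head to head on chromosome 8 (11198423 to 11312826, minus strand, and 11312805 to 11449287, plus strand), so that the gene models share 22 bases. Col4a1 had 418 to 5046 CPM in the 15 mural-like cells (median 1350). In the macrophage-marker cells it had 0 to 5.82 CPM, with 8 reads in all from 2 cells, 1 after thinning. Col4a2 had 165 to 5384 CPM (median 2303) in the mural-like cells, and 3 macrophage-marker cells had a read. Molar cell 29 was the highest of these at 238 CPM, inside the mural-like range, and the log2 ratio of -8.77 became -11.08 without it. Both genes were read in every mural-like cell.

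Of 16 basement membrane genes and their receptors measured, 13 were past the fold in the mural-like cells and 0 in the macrophage-marker cells (median -5.40). The laminin chain Lama4 and the collagen receptor Itga1 were each read in 12 of 15 thinned mural-like cells and in 1 macrophage-marker cell (medians 267 and 121 CPM). Nidogen 1, Nid1, was read in 11 and 2 cells. The receptor chain Itgb1 was read in 15 and 44 cells (1203 and 342 CPM) and was not past the fold.

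The other genes with the largest differences in share had varied roles. Maged2 (chromosome X, 150806370 to 150814345, minus strand), a gene of the MAGE family, had 341 to 6075 CPM in the mural-like cells (median 3375) and 0 to 296 CPM in the macrophage-marker cells (5 thinned and 7 unthinned cells with a read). Without macrophage-marker incisor cell 26 its log2 ratio of -7.93 became -9.23. Igfbp7, a binding protein for insulin-like growth factors found in vessels, had 369 to 4088 CPM (median 1377) and was read in 3 macrophage-marker cells, of which incisor cell 23 reached 499 CPM. Its log2 ratio of -7.13 became -8.43 without that cell. Sparcl1, a matricellular protein, was read in 14 of 15 mural-like cells (median 853 CPM) and in 0 of 47 macrophage-marker cells, for which the limit reckoned in the same way is 6.38%. It was at least 31847-fold higher in sum.

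Cd248, or endosialin, a surface protein of pericytes and stromal cells, was read in 14 mural-like cells (median 1025 CPM) and had 1 read in the macrophage-marker cells. Ptrf, which shapes caveolae, was read in 14 cells (median 547 CPM) and in 1 macrophage-marker cell. Serpinh1, the chaperone of collagen folding, was read in 14 cells with a median of 1403 CPM, and its log2 ratio of -8.21 became -10.63 without macrophage-marker incisor cell 4. Nrep was the least separated of these genes: it had 347 to 3824 CPM in the mural-like cells and up to 563 CPM in the macrophage-marker cells, in molar cell 11, without which its log2 ratio of -5.72 became -6.37. The sodium pump chain Atp1b2 and the secreted protein Ccdc80 were each read in 13 mural-like and 0 macrophage-marker cells. Ndufa4l2, a mitochondrial protein of pericytes, was read in 13 mural-like cells (median 1003 CPM) and had 1 read among the macrophage-marker cells.

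By summed level, Egr1, Sparc, Maged2 and Serpine2 led the genes higher in the mural-like cells. Sparc, a matrix protein that binds collagen (chromosome 11, 55394500 to 55423183, minus strand), had 69.9 to 6336 CPM in the mural-like cells (median 2940) and up to 546 CPM in 10 thinned macrophage-marker cells. Its log2 ratio of -7.13 became -7.76 without macrophage-marker molar cell 7. Serpine2, an inhibitor of thrombin and plasminogen activators (chromosome 1, 79794197 to 79861180, minus strand), had 0 to 29117 CPM in the mural-like cells (median 630). Molar cell 15 held 53.5% of these counts, and the log2 ratio of -11.48 became -10.45 without it. Serpine2 was thus unequal among the mural-like cells, where Sparc was read in 15 of 15.

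Of 21 genes for pericyte surface proteins, channels and receptors measured, 18 were past the fold in the mural-like cells and 1 in the macrophage-marker cells (median -7.44). For all 18 the log2 ratio also passed 1 the same way in each tissue alone. The chains of the vascular ATP-sensitive potassium channel, Kcnj8 and Abcc9, were each read in 12 of 15 mural-like cells (medians 913 and 691 CPM), Kcnj8 with 0 reads in the macrophage-marker cells and Abcc9 with at most 6.79 CPM. S1pr3, a receptor for sphingosine-1-phosphate, was read in 13 thinned and 14 unthinned cells (median 776 CPM). Notch3 was read in 12, Mcam in 13 and Cspg4, the NG2 proteoglycan, in 7 thinned and 8 unthinned cells. The log2 ratio of Notch3, -6.17, became -6.92 or -6.81 without macrophage-marker incisor cell 15 or 17 and -5.58 without mural-like molar cell 19, and that of Cspg4, -7.06, became -6.33 without mural-like incisor cell 22. The endothelin receptors parted by class. Ednra was read in 13 thinned mural-like cells (571 CPM) and in 1 macrophage-marker cell, incisor cell 6, without which its log2 ratio of -5.43 became -9.16. Ednrb was read in 13 macrophage-marker cells and in 0 mural-like cells (127 against 0 CPM), and its log2 ratio of 6.99 became 6.26 without molar cell 20.

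Contractile genes were higher in the mural-like cells but uneven within them. Of 16 measured, 13 were past the fold there and 0 in the macrophage-marker cells (median -5.97). Myl9, the regulatory light chain of smooth muscle myosin (chromosome 2, 156775420 to 156781658, plus strand), was read in 10 of 15 cells and ran from 0 to 10105 CPM with a median of 1713. Acta2, smooth muscle alpha actin, was read in 8 thinned and 10 unthinned cells and ran from 0 to 14984 CPM, with molar cell 22 holding 57.9% of the counts. Its log2 ratio of -10.36 became -9.23 without that cell. Acta2 was read in 23 macrophage-marker cells before thinning and 9 after, at no more than 2.54 CPM. Cald1 and Tpm1, which bind actin filaments, were read in 14 and 13 thinned cells (medians 1250 and 998 CPM). The log2 ratio of Cald1, -7.54, became -8.16 without macrophage-marker molar cell 20. The markers of mature smooth muscle were thin: Tagln and Myh11 were each read in 5 cells, Des in 1, and Cnn1 had 0 reads in both classes. The log2 ratios of Tagln and Myh11, -6.00 and -4.94, became -5.06 and -4.13 without incisor cell 28, and that of Myh11 became -6.67 without macrophage-marker molar cell 29.

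The start regions of 3 contractile genes are shown because each holds a CArG box, the site of serum response factor, marked in capitals. They are on the strand of the gene, 5′ to 3′, from RefSeq on GRCm38.p6: Myl9 at chr2:156775243-156775372, Cnn2 at chr10:79988484-79988613 and Vcl at chr14:20929148-20929240, all on the plus strand, with matches from positions -161, -56 and -227.
Myl9: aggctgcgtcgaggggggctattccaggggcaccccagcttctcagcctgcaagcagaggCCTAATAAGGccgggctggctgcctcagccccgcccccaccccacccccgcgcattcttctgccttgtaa
Cnn2: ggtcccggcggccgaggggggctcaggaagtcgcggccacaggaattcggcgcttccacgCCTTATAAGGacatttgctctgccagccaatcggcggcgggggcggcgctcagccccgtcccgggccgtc
Vcl: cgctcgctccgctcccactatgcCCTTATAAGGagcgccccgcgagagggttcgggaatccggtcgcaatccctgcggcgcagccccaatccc
A CArG box was searched only as 10 bases that open with CC, end with GG and have only A or T between. It was in 1.64% of the 32544 windows, on either strand, and in 3 of the 10 contractile genes past the fold that had a window. Sites with another base inside were not counted. The Acta2 window, counted as without a box, holds ccctatatgg and ccttgtttgg, so the other genes are not shown to lack such sites. Among measured genes with a window the searched pattern was in 3.26% of those higher in the mural-like cells, 1.86% of those higher in the macrophage-marker cells and 1.82% of all. Cnn2, calponin 2, had 742 CPM in the mural-like cells (10 thinned cells, median 596 CPM) and 34.4 CPM in the macrophage-marker cells. Its log2 ratio of -4.39 became -5.34 without macrophage-marker molar cell 11 and -5.01 without incisor cell 17. Vcl, vinculin, had 307 and 0.789 CPM, with 59 reads in the latter class, 96.6% of them in molar cell 20, and its log2 ratio of -7.43 became -8.23 without that cell. Of 5 motifs searched on both strands, the AP-1 site TGACTCA was in 5.19% of windows and in 2 of the 10 contractile genes. Beside 4.58% of all measured genes, it was in 5.90% and 5.35% of the genes higher in the macrophage-marker and mural-like cells. The E-box CACGTG was in 7.17% of windows, and in 13.4% and 7.67% of these genes, beside 12.5% of all measured genes. The TATA box TATAAA was in 13.6% of windows and in 2 of the 9 macrophage genes named by share, as many as held the PU.1 core. It was in 10.7% and 10.2% of the genes higher in the macrophage-marker and mural-like cells, beside 8.89% of all measured genes.

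Matrix genes outside the basement membrane lay on the same side. Of 25 genes for fibrillar collagens and their processing, 15 were past the fold in the mural-like cells, 10 in neither class and 0 in the macrophage-marker cells (median -5.88). Fibronectin, Fn1, was read in 11 of 15 cells (median 1268 CPM) and had 3 reads in all macrophage-marker cells. Type III collagen, Col3a1, was read in 13 cells and ran from 0 to 9686 CPM, and its log2 ratio of -9.44 became -10.40 without macrophage-marker molar cell 24. Fibrillin, Fbn1, was read in 12 cells and had 0 reads in the other class. The type I collagen chains were lower: Col1a1 had 252 CPM (9 of 15 cells, median 16.1 CPM) against 24.1 CPM, and Col1a2 231 against 36.6 CPM without passing the fold. Without macrophage-marker molar cell 32 the log2 ratio of Col1a1, -3.33, became -5.86.

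Of 17 matrix protease and inhibitor genes, 10 were past the fold in the mural-like cells and 2 in the macrophage-marker cells (median -4.30). The plasminogen system was divided. Plat, tissue plasminogen activator, was read in 7 mural-like cells and 0 macrophage-marker cells, with molar cell 1 holding 68.1% of the counts, and its log2 ratio of -10.51 became -8.99 without that cell. Urokinase, Plau, was read in 37 thinned and 40 unthinned macrophage-marker cells and 0 mural-like cells (430 against 0 CPM), and its receptor Plaur in 30 and 1 (812 and 16.1 CPM). The log2 ratio of Plaur, 5.57, became 9.67 without mural-like molar cell 22. Adamts1 was read in 11 of 15 mural-like cells (median 850 CPM) and in 1 macrophage-marker cell, incisor cell 25, without which its log2 ratio of -8.34 became -10.04.

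Of 19 mural and mesenchymal transcription factor genes, 14 were past the fold in the mural-like cells and 1, Zfhx3, in the macrophage-marker cells (median -5.30). Epas1, the hypoxia-inducible factor 2 alpha, was read in 12 thinned cells (median 943 CPM) with 5 reads in the macrophage-marker cells, and Ebf1 in 13 (median 406 CPM) with 1 read. Nr2f2 was read in 13 cells, and Tbx2 and Tbx3 in 9 each with 0 reads in the other class. The log2 ratios of Zfhx3, Nr2f2 and Tbx3, 2.63, -5.30 and -7.11, became 3.66 without mural-like molar cell 22, -6.81 without macrophage-marker incisor cell 17 and -6.24 without mural-like incisor cell 28. Heyl and Hes1, targets of Notch signalling, were read in 8 and 11 thinned mural-like cells. The ligand Jag1 was read in 11 as well (565 against 7.67 CPM), so Notch3, a ligand and these targets were all past the fold in one class. Without macrophage-marker incisor cell 11 the log2 ratio of Jag1, -6.03, became -8.71. Among genes of tooth mesenchyme, 6 of 11 measured were past the fold in the mural-like cells and 1, Spp1, in the macrophage-marker cells (median -5.07). The homeobox gene Msx1 was read in 9 thinned and 10 unthinned mural-like cells, and Barx1 and Dlx5 in 6 and 5, each with 0 reads in the other class. The log2 ratio of Dlx5, -7.39, became -6.33 without molar cell 17. Barx1 had its reads in molar cells, and its log2 ratio of -7.51 became -6.90 without molar cell 22. Dspp, the matrix gene of odontoblasts, had 0 reads in both classes.

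The growth factor system of TGF-beta was split by ligand. Of 17 genes, 9 were past the fold in the mural-like cells and 5 in the macrophage-marker cells (median -1.53). Tgfb1 was read in 38 macrophage-marker cells (172 against 5.68 CPM) and its log2 ratio of 4.70 became 6.21 without mural-like incisor cell 22. Tgfb2 and Tgfb3 were read in 10 and 7 thinned mural-like cells (314 and 338 CPM) and in 1 macrophage-marker cell each. Their log2 ratios of -6.25 and -7.22 became -8.28 without macrophage-marker incisor cell 6 and -8.40 without incisor cell 9, and -5.49 and -6.48 without mural-like molar cells 4 and 31. Tgfbr2, the type II receptor, was read in 31 macrophage-marker cells and 0 mural-like cells. Id2 was higher in the macrophage-marker cells (1289 and 175 CPM), and Id3 in the mural-like cells (1756 and 768 CPM).

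**Figure D4:**
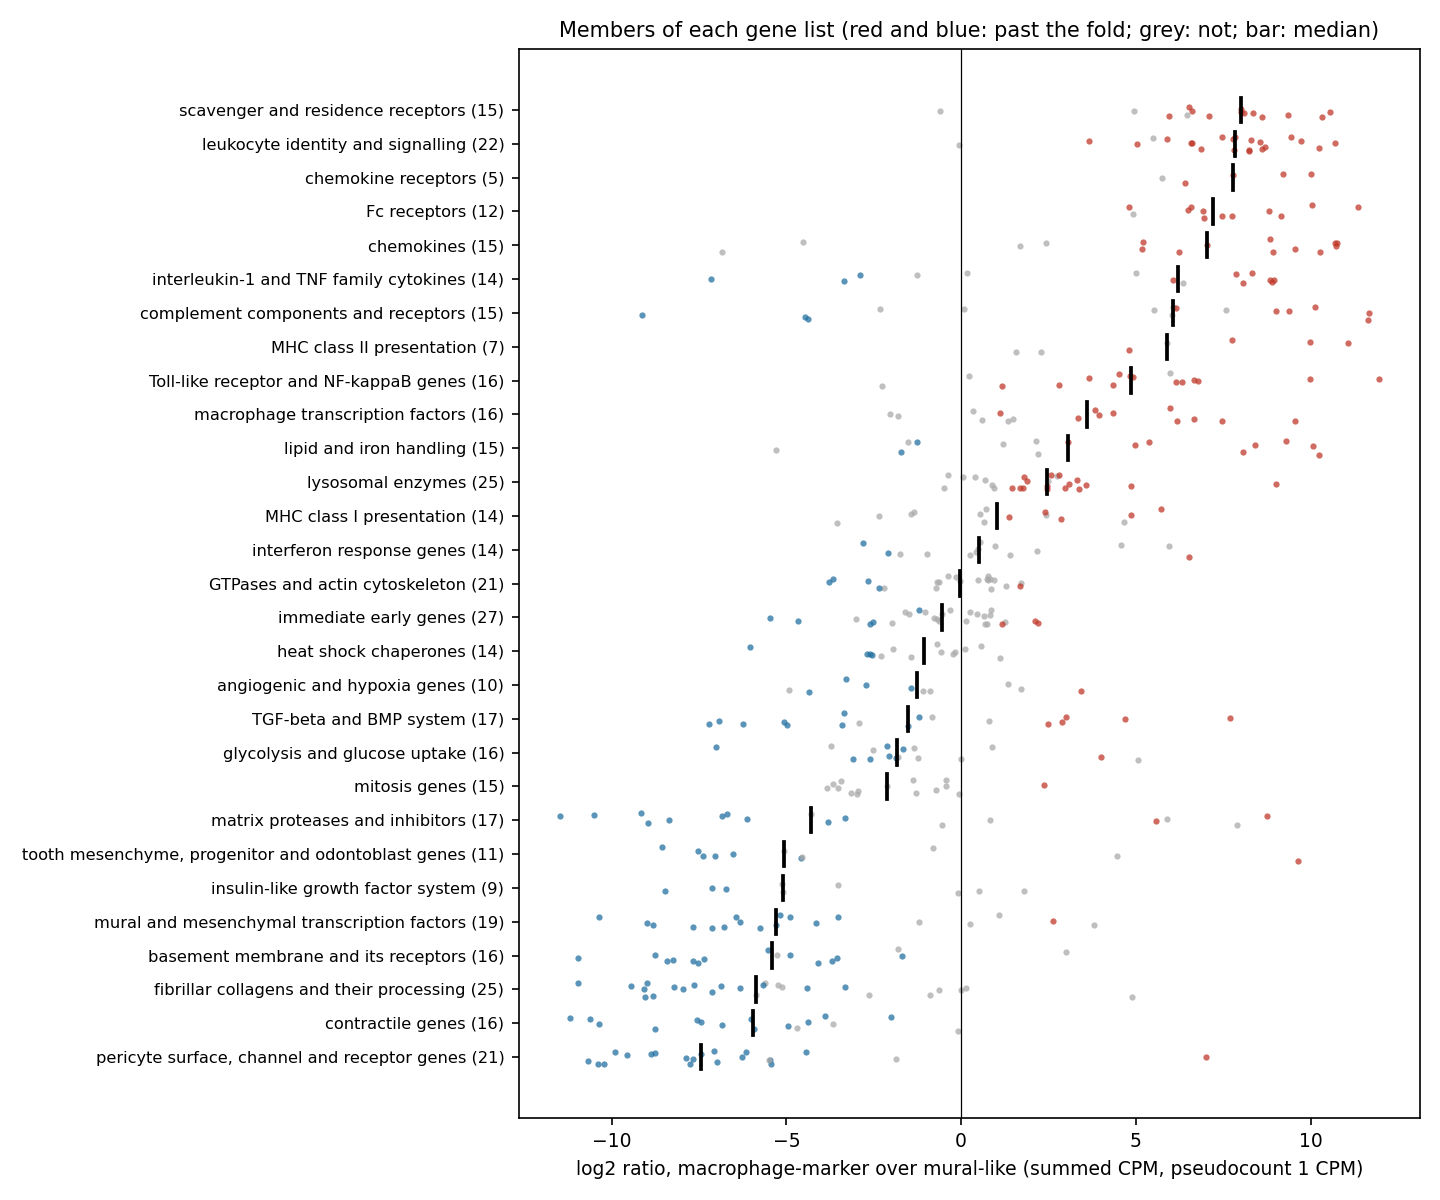
Each row is a gene list with its number of measured members, each point 1 member by its log2 ratio of macrophage-marker over mural-like summed CPM (pseudocount 1 CPM), and each bar the median. Medians run from 7.99 for scavenger and residence receptors to -7.44 for pericyte surface genes, and members of most lists between these ends lie on both sides of 0.

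Ligands and receptors were read as pairs, 32 in all. Of 27 ligands measured, 10 were past the fold in the macrophage-marker cells and 6 in the mural-like cells, and of 22 receptors, 9 and 3. Over all measured genes these shares were 14.7% and 13.9%, and the 3 receptors are near the latter. In 4 pairs the ligand passed in one class and the receptor in the other. One of the 4 rests on Csf1r, whose side was set by the definition of the classes, and is no finding about that receptor. Its ligand Il34 was read in 5 of 15 mural-like cells and 0 macrophage-marker cells (188 against 0 CPM). Molar cell 23 held 38.1% of these counts, and the log2 ratio of -7.57 became -6.97 without it. Csf1, the other ligand of this receptor, had 73.4 CPM in the macrophage-marker cells (8 cells) and 51.5 CPM in the mural-like cells (2 thinned and 3 unthinned cells). Molar cells alone gave it a log2 ratio of -1.06 and incisor cells alone 6.62. The other pairs were Il1a and Il1b with Il1r1, whose call was lost without any one of its 4 mural-like cells, and Il6 with its receptor chain Il6ra, which was read in 30 macrophage-marker cells and 0 mural-like cells.

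Other pairs lay in one class. Gas6 was read in 34 and its receptor Mertk in 12 macrophage-marker cells, each with 0 mural-like reads, and Spp1 and its receptor Cd44 were also past the fold there. The log2 ratios of Spp1 and Cd44, 9.62 and 3.12, became 8.95 without macrophage-marker molar cell 8 and 4.97 without mural-like incisor cell 24. Rarres2, the chemoattractant chemerin, was read in 12 thinned and 13 unthinned mural-like cells (median 280 CPM) and 0 macrophage-marker cells, at least 10223-fold higher in sum. Its receptor Cmklr1 had 14.1 CPM in the macrophage-marker cells (10 thinned cells) and 0 reads in the mural-like cells, below the level for a measured gene. Vegfa was read in 7 thinned mural-like and 6 macrophage-marker cells (257 and 38.0 CPM), and its log2 ratio of -2.72 became -3.89 without macrophage-marker incisor cell 21. Transcript levels do not show that a ligand reached a receptor.

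**Figure D5:**
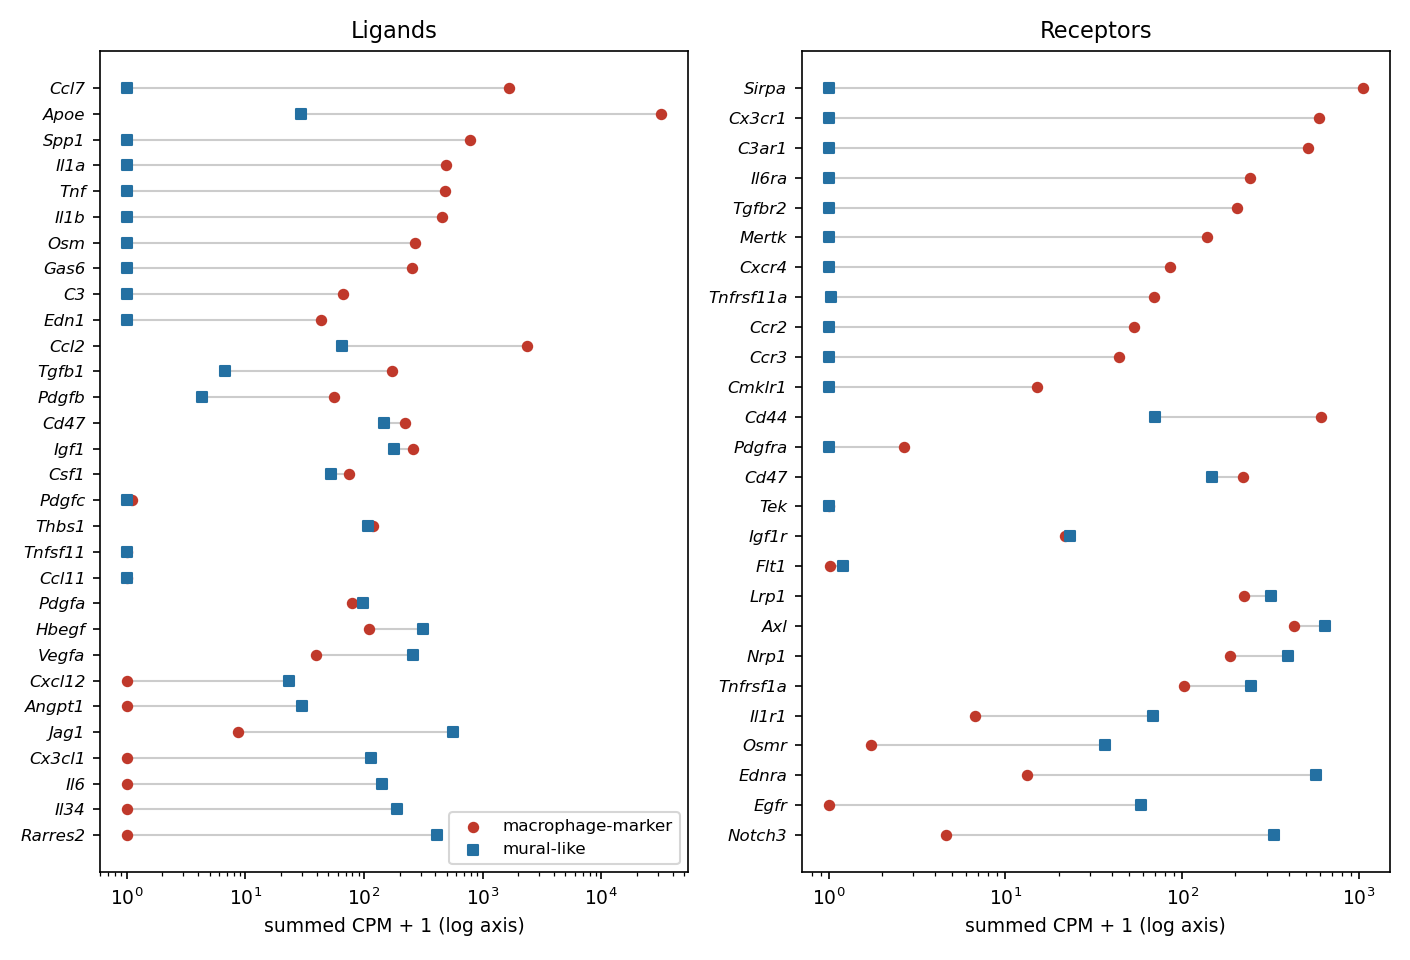
Summed CPM + 1 (horizontal, log axis) of each ligand (left) and receptor (right) in the macrophage-marker cells (circles) and mural-like cells (squares), ordered by log2 ratio. Ccl7 and Sirpa stand at one end and Rarres2 and Notch3 at the other, and the receptors of the definition are not drawn.

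Other lists had fewer members past the fold, some in shares near the 14.7% (macrophage-marker) and 13.9% (mural-like) of all measured genes. Of 27 immediate early genes, which answer a stimulus first, 5 were past the fold in the mural-like cells, 3 in the macrophage-marker cells and 19 in neither (median -0.54). Egr1 was read in 14 of 15 mural-like cells (median 5221 CPM) and in 29 thinned macrophage-marker cells (median 58.6 CPM), and the ranges of 0 to 10605 and 0 to 5771 CPM overlapped. Fos had medians of 7893 and 1420 CPM and did not pass, since 14 of 15 and 43 of 47 cells had a read. Klf6 was higher in the macrophage-marker cells (1790 and 387 CPM). Of 14 heat shock chaperones, 4 were past the fold in the mural-like cells and 10 in neither (median -1.06). Hspa1b had 2097 and 321 CPM (12 of 15 and 10 of 47 cells). Its reads can be shared with the near-identical Hspa1a, and its log2 ratio of -2.71 became -4.06 without macrophage-marker molar cell 32. These lists are sensitive to how cells are handled, and their part in the other differences was not tested.

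Of 14 interferon response genes, 2 were past the fold in the mural-like cells, 1 in the macrophage-marker cells and 11 in neither. Beside 13.9% and 14.7% of all measured genes, these counts do not set the list apart. The list's median of 0.51 was -0.11 in incisor cells alone. The gene higher in the macrophage-marker cells, Irf7, was read in 10 thinned cells, and its call was lost without any one of them, with a log2 ratio of 6.51 that became 5.05 without molar cell 8. Ifitm3 was read in 15 of 15 mural-like cells (985 against 139 CPM), and its log2 ratio of -2.82 became -3.45 without macrophage-marker molar cell 8. Of 16 glycolysis genes, 7 were past the fold in the mural-like cells, 1 in the macrophage-marker cells and 8 in neither (median -1.84). For 5 of the 7 the log2 ratio also passed 1 the same way in each tissue alone. The calls of Aldoa, Pfkl and Hk1 were lost without single cells, for Aldoa in 31 of the leave-outs. Tpi1 had 291 and 79.3 CPM, while Hk2 had 82.7 CPM in the macrophage-marker cells and 4.26 CPM in the mural-like cells. The log2 ratio of Hk2, 3.99, became 5.64 without mural-like molar cell 22. Mitosis genes gave a median of -2.12, which was 3.36 in molar cells alone. Incisor cell 10 held 99.8% of the Top2a counts of the mural-like cells and 99.3% of their Ccnb1 counts. Actin and GTPase genes had a median of -0.02 with 16 of 21 in neither class, and the sign of this median turned under 4 of the other settings, median-of-ratios scaling among them.

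Genes most alike between the classes, of those with at least 200 CPM in both, were Hnrnpc, Rps14, Plxnb2, Rps19, Rps9 and Eif4a1, each with a log2 ratio between -0.01 and 0.01. The ribosomal protein gene Rps19 had medians of 482 and 528 CPM and was read in 46 of 47 and 15 of 15 cells. Plxnb2, a receptor for semaphorins, had equal sums (268 and 267 CPM) but was read in 33 of 47 and 7 of 15 thinned cells, with a log2 ratio of -0.61 among molar cells and 0.42 among incisor cells.

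Markers of other cell types were low in both classes, with exceptions. Of 12 endothelial markers, 3 were measured. Esam, an adhesion molecule also of pericytes, was past the fold in the mural-like cells (8 of 15 cells, 278 against 0 CPM). The other measured markers, Tie1 and Eng, were not past the fold but were also higher there. The log2 ratios of the measured markers ran from -8.12 to -2.91. Pecam1 had 0 reads in the mural-like cells and Cdh5 0 reads in both classes. The 12 summed to 31.4 CPM in the macrophage-marker and 467 CPM in the mural-like cells. Fibroblast markers summed to 107 and 3015 CPM, with Col3a1, Col1a1 and Fbln1 past the fold in the mural-like cells, but Pdgfra and Lum had 0 reads there. Osteoclast markers summed to 836 and 379 CPM: Acp5 was read in 33 macrophage-marker cells and 0 mural-like cells, and Ctsk in 7 mural-like cells and 1 macrophage-marker cell. Neutrophil markers summed to 121 CPM in the macrophage-marker cells, nearly all Csf3r from 10 cells, a call lost when any of them was left out, and lymphocyte and dendritic cell markers to 43.8 and 96.5 CPM. Odontoblast and osteoblast markers summed to 27.4 and 755 CPM, the latter nearly all Alpl, alkaline phosphatase, which was past the fold in the mural-like cells (9 of 15 thinned cells against 3 of 47). Its log2 ratio of -8.56 became -7.19 without mural-like incisor cell 22. Of the Schwann and glial markers, Ngfr was past the fold in the mural-like cells (4 cells, 47.4 against 0 CPM), a call lost without incisor cell 22. Mast cell, erythroid and dental epithelium lists had 0 measured members. The part of such cells or their RNA in the differences was not tested.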

How the data were processed

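Smart-Seq2 libraries of 64 single cells, 32 from molars and 32 from incisors, were read from the deposited table of counts per gene, which the authors made with mm10 and, per the submitters' processing notes, Trim Galore, HISAT2 and Seurat. Which tool and annotation gave the counts is not given in the sources used here. The libraries carry no molecular identifiers, so counts are of reads, and the library kit does not mark strand. The table holds 188 count columns, and 124 that match no labelled cell were not used.

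Classes were set from Csf1r, C1qa and Rgs5, counts were summed per class, and CPM was computed from them. Shares of cells came from counts thinned to 500000 reads per cell. Class totals were 74808887 and 38713793 counts, so 3 counts were 0.0401 and 0.0775 CPM, a floor that covers counting error only. No doublet caller was run. The labels name no animals, so no test was made. The classes, gene lists and ligand and receptor pairs were chosen with earlier results of these data known.

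Genes were named by rule. Per direction these were the 12 with the largest share difference and the 4 highest by summed CPM, all past the fold. For the 12, the log2 ratio also had to pass 1 the same way in each tissue alone. To them came up to 4 highest members of each list, ligands and receptors, and Glb1. The last were the 6 most alike genes with at least 200 CPM in both classes. The marker genes of the classes and predicted genes were left out, list members at either end of the ratios were added, and further members were chosen after their values were seen. Positions are GENCODE gene models on GRCm38, and promoter windows are from RefSeq. The steps were tested on simulated data. Alternatives were another scaling, pseudocount, level minimum, Rgs5 limit, each tissue alone and leaving out each cell. Python 3.11.15, NumPy 2.4.6, pandas 2.3.3, SciPy 1.17.1 and Matplotlib 3.10.9 were used.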

Additional observations from a re-analysis of the deposited data

Results flagged for a closer look

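Measures of the mural-like cells were examined within each tissue for a cell apart from the rest, and of 12 such groups of values 3 had one. The limit used flags about 1 in 20 groups by chance if values are independent and normally spread. That was not shown for these cells, and the groups share cells, so the count is not set against this rate. Mural-like molar cell 22 had a summed 26024 CPM of the 12 mural markers, far above the other molar cells of its class. Mural-like incisor cell 2 had 15.3% of its counts from Malat1 and 11.9% from Rn45s, both far above the other incisor cells of its class, and it is also the cell nearest to the Rgs5 limit.

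The 2 cells in neither class held signals of their own. In molar cell 10, 39.4% of the counts came from Amelx, the enamel matrix gene amelogenin. In incisor cell 13 the macrophage markers summed to 10615 CPM and the mural markers to 2979 CPM.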

How the results depend on the processing

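Over 13 alternatives of scaling, pseudocount, level, tissue, Rgs5 limit and thinning, the genes past the fold numbered 1037 to 1449 (macrophage-marker) and 1032 to 1617 (mural-like), the ends of each range coming with 5 reads per cell, molar cells alone, at least 50 CPM and incisor cells alone. Leaving out each cell in turn gave 1173 to 1282 and 1019 to 1234 genes, of which at least 1167 and 973 were shared with the full set. Median-of-ratios scaling moved the median log2 ratio of all measured genes from -0.19 to 0.04. The 30 genes named by share or summed level kept their direction in 240 of 240 values over the 8 alternatives that change a log2 ratio. The smallest absolute log2 ratio was 2.30. Molar cells alone and incisor cells alone are among the 8, and the genes named by share were chosen to hold in both. Their values there were thus fixed in advance. All 30 were also picked as the most extreme genes, so this count is no check of the contrast. The median difference in share of cells with a read was -0.28 percentage points, and 2.53 in molar cells alone; the cause was not tested. List medians depended on the pseudocount: with 10 and 0.1 CPM the leukocyte list gave 4.56 and 11.14, Fc receptors 3.97 and 10.52 and tooth mesenchyme genes -2.09 and -7.84. They turned sign for interferon response genes (incisor cells alone), mitosis genes (molar cells alone) and actin and GTPase genes (4 settings). Several calls in the 15 mural-like cells rest on 4 to 6 cells. Those of Actg2, P2ry14, Adamts9 and Hey2 were each lost without any one of 3 mural-like cells. No paired analysis was possible because the result comes from no test and equal cell numbers in molars and incisors do not mark a shared animal.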
